A study of Mus musculus with 24 samples.

Results

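The 10 genes described here encode the transforming growth factor beta (TGF-beta) ligands (Tgfb1, Tgfb2 and Tgfb3), their receptors (Tgfbr1, Tgfbr2 and Tgfbr3) and the latent TGF-beta binding proteins (Ltbp1, Ltbp2, Ltbp3 and Ltbp4). They were taken by gene symbol from a count table of 47967 genes, in which all 10 were found, and all 10 were among the 17576 genes with enough counts to be tested. The rule that took them used gene symbols only, but earlier results of these data were known when they were chosen.

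TGF-beta is secreted as a latent complex, in which the ligand dimer is held by its own propeptide. In most cells the propeptide is bound in turn to a latent TGF-beta binding protein (LTBP), which ties the complex to fibrillin and fibronectin fibres of the matrix until integrins, proteases or other activators free the ligand. The free ligand binds the type II receptor (Tgfbr2), which phosphorylates the type I receptor (Tgfbr1, also called ALK5), and this kinase activates SMAD2 and SMAD3. In fibroblasts the pathway is best known for switching on matrix and contractile genes, and inhibitors of the type I receptor are known to raise the yield of cardiac reprogramming.

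The cells were fibroblasts cultured from C57BL/6 mouse embryos of embryonic day 13.5 to 14.5 (MEFs). Retroviruses carried GMT (by the usual reading Gata4, Mef2c and Tbx5), GHMT (the same with Hand2) or AGHMT (GHMT with Akt1), combinations that turn on heart muscle genes in fibroblasts, and Mock cells were the control. RNA was taken 2 or 7 days after transduction, so that there were 8 groups of 3 libraries, 24 in all: Mock, GMT, GHMT and AGHMT at each day. The labels do not say whether Mock cells received an empty virus, and they describe a richer induction medium for infected cells without saying which medium Mock cells were kept in, so virus, medium and cocktail cannot be told apart. The 3 replicates of a group are not described as separate cultures, and the p-values therefore reflect only the scatter among these libraries, part or all of which may be technical. A transduced culture can hold cells that did not take up every virus, and the libraries average over all cells of a culture.

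Library totals ran from 29345957 to 37495178 counts. Levels are counts scaled to library size with trimmed-mean (TMM) factors, written CPM, and means are given ± SD with n = 3 in every group. Differences are given as log2 fold changes ± SE. A gene was called where edgeR's quasi-likelihood test gave a Benjamini-Hochberg adjusted p under 0.05 over all tested genes, and "rose" and "fell" are used only for such calls. Gata4 averaged at most 1.66 CPM in Mock and at least 633 CPM under every cocktail, and Hand2 at most 7.58 CPM in Mock and GMT and at least 978 CPM in GHMT and AGHMT, as the labels give. Library 3 of AGHMT at day 2 stood apart from its replicates, with a mean absolute deviation of log2 0.218 against 0.0792 to 0.125 in the other 23 libraries, and the results that turn on it are given with and without it. Summed CPM of 10 fibroblast markers, each at 1 CPM or more in every group, ran from 30004 to 32719.7 CPM in Mock at day 2 and 54449.5 to 60979 CPM in Mock at day 7. Under the cocktails the same sum was 19873 to 24084 CPM at day 2 and 10647 to 14234 CPM at day 7. In bulk RNA, fewer fibroblasts and less RNA per fibroblast cannot be told apart. Summed macrophage markers (14 genes) went from 55.8 to 57.1 CPM in Mock at day 2 to 389 to 567 CPM in Mock at day 7, against 14.8 to 51.5 CPM and 42.3 to 67.7 CPM under the cocktails. Summed markers of endothelium (10 genes) reached at most 24.96 CPM and those of lymphocytes and platelets (8 genes) at most 11.3 CPM, with Cd3e at 0 in every group mean. The summed cardiomyocyte markers (10 genes) went from 12.4 to 24.6 CPM over the Mock libraries of both days to 3995 to 12799 CPM under the cocktails at day 2 and 9011 to 21099.5 CPM at day 7. Smooth muscle markers (7 genes) summed to 6419 to 6992 CPM in Mock and 3218 to 6145 CPM under the cocktails at day 2, and 4683 to 5237 and 4352 to 7971 CPM at day 7. Epithelial and mesothelial markers (8 genes) summed to 150.5 to 174 CPM in Mock at day 7, against 256 to 275 in GMT, 631 to 683 in GHMT and 168 to 187 in AGHMT, and to 30.5 to 71.9 CPM over all day 2 libraries. The part of these cell types in the results was not tested.

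Against Mock of the same day, the cocktails moved the family in a fixed pattern for 5 of the 10 genes and in a pattern that differed by cocktail or day for the other 5. Tgfb2 and Tgfbr1 rose and Tgfbr2, Ltbp2 and Ltbp4 fell under all 3 cocktails at both days. Tgfbr3 (under GHMT and AGHMT) and Ltbp3 (under all 3 cocktails) were above Mock at day 2 and below it at day 7. Ltbp1 rose under GHMT at both days and fell under GMT and AGHMT at both days. Tgfb1 and Tgfb3 changed direction with cocktail or day.

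Most genes of the transcriptome were called in these comparisons, so the counts of members are read beside the share of all tested genes. At day 2, 10 of the 10 genes were called under GMT with 4 higher and 6 lower, against 67.1% called (33.9% higher, 33.1% lower) of all tested genes. Under GHMT 9 were called, 6 higher and 3 lower, against 68.2% called (34.9% higher, 33.3% lower), and under AGHMT 10, 4 higher and 6 lower, against 75.4% called (38% higher, 37.4% lower). At day 7, all 10 were called under each cocktail. The split was 4 higher and 6 lower under GMT, against 73% called (37.1% higher, 36% lower), 5 and 5 under GHMT, against 72% called (36.3% higher, 35.6% lower), and 3 and 7 under AGHMT, against 76.8% called (38.6% higher, 38.1% lower). Members called with a change of at least 2-fold numbered 3 under GMT, 3 under GHMT and 5 under AGHMT at day 2, against 24.7%, 25.7% and 32.1% of all tested genes. At day 7 they numbered 6, 6 and 8, against 30.4%, 29.7% and 33.7%. All cocktails of a day were compared with the same 3 Mock libraries, so their differences from Mock are not independent of each other.

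**Figure D1:**
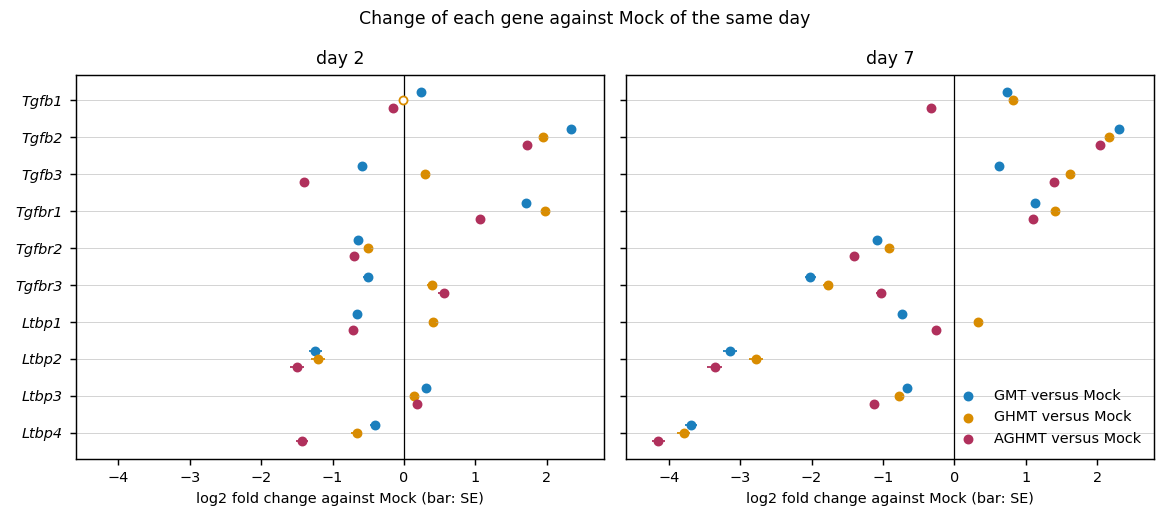
Log2 fold change against Mock of the same day (horizontal axis) for each of the 10 genes (vertical axis), at day 2 (left) and day 7 (right). Points are estimates for GMT, GHMT and AGHMT, bars are SE, and the open point did not pass the test. Tgfb2 and Tgfbr1 lie right of 0 and Tgfbr2, Ltbp2 and Ltbp4 left of 0 in both panels, with Ltbp4 between -4.15 and -3.69 at day 7.

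Among the ligands, Tgfb2 gained most on Mock at both days. Tgfb3, the most abundant ligand per length in every group, lay on either side of Mock at day 2 and above it at day 7. Tgfb1, the isoform best known from platelets, immune cells and fibrosis, stayed within log2 0.82 of Mock.

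Tgfb2 (ENSMUSG00000039239, chromosome 1, 186622792-186705989, minus strand of GRCm38) encodes the isoform that in the embryo is needed for heart valves, septa and the outflow tract. In the 3 libraries of each group at day 2 it stood at 32.1, 32.1 and 32.8 CPM in Mock, 162, 164 and 164 in GMT, 127, 130.3 and 117 in GHMT and 112, 108 and 100.2 in AGHMT. At day 7 it stood at 49.8, 49.6 and 46.8 CPM in Mock, 244, 240.2 and 238 in GMT, 226, 213 and 218 in GHMT and 198, 211 and 191 in AGHMT. Every cocktail library was above every Mock library of either day, and the order GMT over GHMT over AGHMT held at both days without overlap between neighbours. Against Mock, the day 2 differences were log2 2.34 ± 0.05 under GMT, 1.95 ± 0.05 under GHMT and 1.72 ± 0.05 under AGHMT (edgeR, adjusted p = 1.07e-22, 3.06e-21 and 2.42e-20). Those at day 7 were log2 2.30 ± 0.05 under GMT, 2.17 ± 0.05 under GHMT and 2.04 ± 0.05 under AGHMT (edgeR, adjusted p = 4.89e-23, 1.56e-22 and 4.75e-22). The step from GMT to GHMT was -0.39 ± 0.05 at day 2 and -0.14 ± 0.05 at day 7 (edgeR, adjusted p = 1.19e-07 and 0.0197), and that from GHMT to AGHMT was -0.23 ± 0.05 and -0.13 ± 0.05 (edgeR, adjusted p = 2.20e-04 and 0.0186). The day 7 steps were small. That from GMT to GHMT missed edgeR's threshold with no filter on low counts (log2 -0.13, adjusted p = 0.0862), without library 2 of GHMT at day 7 (log2 -0.12, adjusted p = 0.0787), without library 3 of GHMT at day 7 (log2 -0.13, adjusted p = 0.0616) and without library 1 of GMT at day 7 (log2 -0.13, adjusted p = 0.0627), and that from GHMT to AGHMT missed it without library 1 of AGHMT at day 7 (log2 -0.12, adjusted p = 0.0582), without library 3 of AGHMT at day 7 (log2 -0.10, adjusted p = 0.109) and without library 1 of GHMT at day 7 (log2 -0.11, adjusted p = 0.0832).

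The 250 bases before the Tgfb2 start are shown because this gene had the largest rise of the 10 against Mock in 5 of the 6 comparisons. Under GHMT at day 2 Tgfbr1 was slightly above it (log2 1.97 against 1.95). The bases come from RefSeq on GRCm38.p6, chr1:186705990-186706239, minus strand, 5′ to 3′, and capitals mark TATAAA (31 to 26 bases before the start) and CACGTG (51 to 46 bases before it), sought on both strands.
Tgfb2 promoter: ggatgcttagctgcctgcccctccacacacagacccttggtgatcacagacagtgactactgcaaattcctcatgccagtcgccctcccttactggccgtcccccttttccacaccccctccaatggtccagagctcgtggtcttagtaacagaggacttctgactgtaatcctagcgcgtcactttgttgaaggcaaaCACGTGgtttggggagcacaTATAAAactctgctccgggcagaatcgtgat
TATAAA was found in 12.4% and CACGTG in 6.02% of 32851 promoters of the same length, and these 2 strings were sought after the sequence had been seen. The window holds none of the other strings sought on both strands, which were AGATAA for GATA factors, AGGTGT for T-box factors, CATCTG for Hand proteins, the MEF2 core, GTCTAGAC as a SMAD palindrome and TGACGTCA as a cyclic AMP response element. A match is a description of letters only.

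Tgfb3 (ENSMUSG00000021253, chromosome 12, 86056745-86079041, minus strand) encodes the isoform known for palate fusion. At day 2 it was at 327, 336 and 308 CPM in Mock, 212, 221 and 211 in GMT, 385, 422 and 382 in GHMT and 125, 119.6 and 123 in AGHMT. At day 7 it was at 229.6, 227 and 203 CPM in Mock, 346, 354 and 320.4 in GMT, 657, 683 and 685 in GHMT and 587, 608 and 538 in AGHMT. At day 2 the 4 groups did not overlap and only GHMT was above Mock, while at day 7 all 3 cocktails were above Mock and GHMT was the highest. The differences from Mock were log2 -0.59 ± 0.06 under GMT, 0.29 ± 0.05 under GHMT and -1.40 ± 0.06 under AGHMT (edgeR, adjusted p = 7.22e-10, 4.34e-05 and 2.73e-17) at day 2. Those of day 7 were log2 0.63 ± 0.06 under GMT, 1.62 ± 0.06 under GHMT and 1.39 ± 0.06 under AGHMT (edgeR, adjusted p = 1.81e-10, 1.28e-18 and 2.18e-17). AGHMT thus went from the lowest of the 8 groups at day 2 to the second highest at day 7, and the change of its difference from Mock between the days was log2 2.79 ± 0.08 (edgeR, adjusted p = 3.81e-19). GHMT was above GMT by 0.88 ± 0.06 at day 2 and 0.99 ± 0.05 at day 7 (edgeR, adjusted p = 1.03e-12 and 1.35e-13). AGHMT differed from GHMT by -1.69 ± 0.06 at day 2 and by -0.22 ± 0.05 at day 7 (edgeR, adjusted p = 8.20e-18 and 0.00131). Among all 8 groups, GMT at day 7 overlapped Mock at day 2, and Mock at day 7 overlapped GMT at day 2.

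Tgfb1 (ENSMUSG00000002603, chromosome 7, 25687002-25705077, plus strand) stood between 24.8 and 56.7 CPM over the 24 libraries. Its day 2 means were 38.2 ± 0.782 CPM in Mock, 45.1 ± 2.44 in GMT, 37.96 ± 2.69 in GHMT and 34.2 ± 0.873 in AGHMT. At day 7 the 3 libraries stood at 32.7, 30.4 and 30.9 CPM in Mock, 52.9, 53.7 and 49.9 in GMT, 53.5, 56.7 and 56.2 in GHMT and 24.8, 25.3 and 24.98 in AGHMT. The day 7 libraries of GMT and GHMT overlapped each other above Mock, and those of AGHMT lay below Mock. Tgfb1 rose under GMT and GHMT and fell under AGHMT at day 7, by log2 0.73 ± 0.05 under GMT, 0.82 ± 0.05 under GHMT and -0.33 ± 0.05 under AGHMT (edgeR, adjusted p = 2.02e-12, 2.18e-13 and 6.15e-06). GHMT and AGHMT therefore lay on opposite sides of Mock, with a difference of -1.15 ± 0.05 (edgeR, adjusted p = 2.71e-15). At day 2 the differences were log2 0.24 ± 0.05 under GMT, -0.01 ± 0.05 under GHMT and -0.16 ± 0.05 under AGHMT (edgeR, adjusted p = 1.82e-04, 0.882 and 0.00679), with GHMT not called (95% interval -0.12 to 0.10). The day 2 difference of AGHMT from Mock missed edgeR's threshold with no filter on low counts (log2 -0.14, adjusted p = 0.0741). At day 2, GHMT differed from GMT by log2 -0.25 ± 0.05 (edgeR, adjusted p = 2.52e-04). The day 2 difference of AGHMT from GHMT, -0.15 ± 0.05 (edgeR, adjusted p = 0.0164), missed it with scaling by library totals (log2 -0.06, adjusted p = 0.311), with no filter on low counts (log2 -0.14, adjusted p = 0.094), with the compared libraries fitted alone (log2 -0.14, adjusted p = 0.114), without library 2 of AGHMT at day 2 (log2 -0.13, adjusted p = 0.0652), without library 3 of GHMT at day 2 (log2 -0.10, adjusted p = 0.128) and without the 3 libraries furthest from their groups (log2 -0.11, adjusted p = 0.105). At day 7, GHMT and GMT did not differ by the test (0.09 ± 0.05, 95% interval -0.02 to 0.19, edgeR, adjusted p = 0.172).

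**Figure D2:**
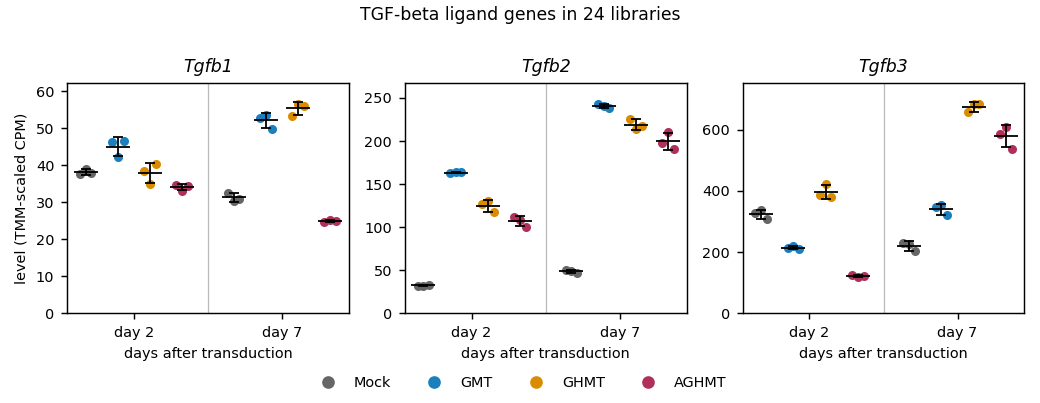
Level in TMM-scaled CPM (vertical axis, from 0) of the 3 ligand genes at day 2 and day 7. Each point is a library, the horizontal bar is the mean and the whiskers are the SD of 3 libraries. Tgfb2 is above Mock in every cocktail library, and Tgfb3 in AGHMT moves from 123 ± 2.87 CPM at day 2 to 578 ± 35.9 CPM at day 7.

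Per kilobase of exon, the 3 ligands summed to 109 ± 4.31 CPM per kb in Mock at day 2 and 79.6 ± 4.79 in Mock at day 7. Under GMT, GHMT and AGHMT the sum was 101 ± 1.18, 146 ± 6.99 and 61.5 ± 1.498 CPM per kb at day 2, and 152 ± 5.89, 248 ± 4.05 and 210.3 ± 12.2 at day 7. At day 7 every cocktail therefore had a higher summed ligand level than Mock, which at day 2 was so only for GHMT. Tgfb3 made up 87.9% ± 0.489 of the sum in Mock at day 2 and 81.6% ± 0.691 at day 7. The share of Tgfb2 was 5.14% ± 0.265 in Mock at day 2, against 28.1% ± 0.215 in GMT, 14.7% ± 0.465 in GHMT and 29.97% ± 1.23 in AGHMT. At day 7 it was 10.6% ± 0.281 in Mock, 27.3% ± 0.894 in GMT, 15.2% ± 0.668 in GHMT and 16.4% ± 0.352 in AGHMT. GMT kept a Tgfb2 share of similar size at both days, while that of AGHMT was lower at day 7. The level of Tgfb2 in AGHMT was higher at day 7, at 34.5 against 18.4 CPM per kb at day 2. Tgfb3, in the same sum, stood at 171 against 36.3 CPM per kb. The shares depend on the gene length used. With the longest transcript of each gene as its length, that of Tgfb1 in Mock at day 2 is 12.7% in place of 6.97% ± 0.236, and that of Tgfb2 in GMT at day 2 is 28.3%.

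The receptors moved in opposite directions. The type I receptor kinase Tgfbr1 rose and the type II receptor Tgfbr2 fell under every cocktail at both days. Tgfbr3 (betaglycan), a coreceptor that presents ligand, TGF-beta 2 above all, to the type II receptor, fell under every cocktail at day 7, after a rise under GHMT and AGHMT at day 2.

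Tgfbr1 (ENSMUSG00000007613, chromosome 4, 47353222-47414931, plus strand) stood at day 2 at 64.1, 62.4 and 64.4 CPM in Mock, 204, 217 and 204 in GMT, 245, 261 and 244 in GHMT and 135, 139 and 125 in AGHMT. At day 7 it stood at 82.7, 85.96 and 86.7 CPM in Mock, 179, 190.1 and 187 in GMT, 236, 212 and 230.4 in GHMT and 178, 187 and 184 in AGHMT. No cocktail library overlapped Mock, and GHMT was highest at each day. The rises over Mock were log2 1.71 ± 0.05 under GMT, 1.97 ± 0.05 under GHMT and 1.06 ± 0.05 under AGHMT (edgeR, adjusted p = 4.18e-20, 2.39e-21 and 4.21e-16) at day 2. The day 7 differences were log2 1.12 ± 0.05 under GMT, 1.41 ± 0.05 under GHMT and 1.10 ± 0.05 under AGHMT (edgeR, adjusted p = 1.14e-16, 1.14e-18 and 1.44e-16). GHMT exceeded GMT by 0.26 ± 0.05 and 0.29 ± 0.05 (edgeR, adjusted p = 4.94e-05 and 2.20e-05), and AGHMT differed from GHMT by -0.91 ± 0.05 and -0.30 ± 0.05 (edgeR, adjusted p = 3.58e-14 and 7.00e-06), at day 2 and day 7. GMT and AGHMT overlapped at day 7.

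Tgfbr2 (ENSMUSG00000032440, chromosome 9, 116084293-116175360, minus strand) was at 241, 259.7 and 257 CPM in the Mock libraries of day 2 and 387, 353 and 355 CPM in those of day 7. Its cocktail means were 161 ± 4.49, 177 ± 2.23 and 155 ± 9.57 CPM at day 2, and 172 ± 1.73, 193 ± 8.16 and 138 ± 2.202 CPM at day 7, for GMT, GHMT and AGHMT. All 18 cocktail libraries lay below all 6 Mock libraries. The differences were log2 -0.65 ± 0.05 under GMT, -0.51 ± 0.05 under GHMT and -0.70 ± 0.05 under AGHMT (edgeR, adjusted p = 6.10e-12, 5.36e-10 and 8.81e-13) at day 2. By day 7 they stood at log2 -1.08 ± 0.05 under GMT, -0.92 ± 0.05 under GHMT and -1.41 ± 0.05 under AGHMT (edgeR, adjusted p = 1.43e-16, 4.11e-15 and 7.11e-19). Mock itself rose between the days by 0.53 ± 0.05 (edgeR, adjusted p = 5.71e-10). AGHMT differed from GHMT at both days, by -0.19 ± 0.05 and -0.49 ± 0.05 (edgeR, adjusted p = 0.00131 and 4.30e-09). GHMT exceeded GMT by 0.14 ± 0.05 and 0.16 ± 0.05 (edgeR, adjusted p = 0.02 and 0.00729). The day 2 value of that step missed edgeR's threshold with scaling by library totals (log2 0.02, adjusted p = 0.736), with no filter on low counts (log2 0.12, adjusted p = 0.119), without library 1 of GHMT at day 2 (log2 0.13, adjusted p = 0.0547), without library 2 of GHMT at day 2 (log2 0.13, adjusted p = 0.0592), without library 1 of GMT at day 2 (log2 0.13, adjusted p = 0.0661) and without library 2 of GMT at day 2 (log2 0.12, adjusted p = 0.0765).

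The balance of the 2 signalling receptors differed between Mock and the cocktails. Per kilobase of exon, Tgfbr1 made up 24.02% ± 0.944 of Tgfbr1 and Tgfbr2 together in Mock at day 2 and 22.6% ± 1.31 at day 7. Under GMT, GHMT and AGHMT it made up 61.8% ± 1.35, 63.9% ± 0.668 and 51.8% ± 0.458 at day 2, and 57.4% ± 0.524, 59.4% ± 0.4403 and 62.4% ± 0.982 at day 7. Tgfbr2 was thus the more abundant messenger in every Mock group and Tgfbr1 in every cocktail group. This share was computed after the levels had been seen and is a description, and it concerns messenger, not receptor protein.

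Tgfbr3 (ENSMUSG00000029287, chromosome 5, 107106570-107289629, minus strand) stood at day 2 at 92.99, 104 and 112 CPM in Mock, 74.2, 68.1 and 75.6 in GMT, 139, 140.3 and 126 in GHMT and 161, 161 and 132 in AGHMT. At day 7 it stood at 236, 212 and 239 CPM in Mock, 54.1, 57.1 and 58.7 in GMT, 70.8, 64.00 and 66.6 in GHMT and 109, 109.5 and 118 in AGHMT. Mock rose between the days and every cocktail was lower at day 7 than at day 2. GHMT and AGHMT, above Mock at day 2, were thus below it at day 7, while GMT was below it at both days. The differences were log2 -0.50 ± 0.07 under GMT, 0.39 ± 0.07 under GHMT and 0.55 ± 0.07 under AGHMT (edgeR, adjusted p = 1.86e-06, 5.06e-05 and 2.78e-07) at day 2. The day 7 values were log2 -2.02 ± 0.08 under GMT, -1.77 ± 0.08 under GHMT and -1.03 ± 0.07 under AGHMT (edgeR, adjusted p = 8.72e-18, 1.09e-16 and 3.58e-12). Mock rose by 1.15 ± 0.07 (edgeR, adjusted p = 1.76e-12). GHMT exceeded GMT by 0.90 ± 0.07 at day 2 and 0.25 ± 0.08 at day 7 (edgeR, adjusted p = 2.80e-10 and 0.0124), the latter missing the threshold without library 1 of GHMT at day 7 (log2 0.21, adjusted p = 0.0693) and without library 1 of GMT at day 7 (log2 0.21, adjusted p = 0.0617). AGHMT exceeded GHMT by 0.74 ± 0.08 at day 7 (edgeR, adjusted p = 8.82e-09), the only member called higher in AGHMT than in GHMT at either day. At day 2 the libraries of GHMT and AGHMT overlapped and the difference was 0.16 ± 0.07 (95% interval 0.01 to 0.32, edgeR, adjusted p = 0.067). That difference passed edgeR's threshold with scaling by library totals (log2 0.25, adjusted p = 0.00541), with no filter on low counts (log2 0.17, adjusted p = 0.0102), without library 3 of AGHMT at day 2 (log2 0.25, adjusted p = 0.00129) and without the 3 libraries furthest from their groups (log2 0.21, adjusted p = 0.00687).

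**Figure D3:**
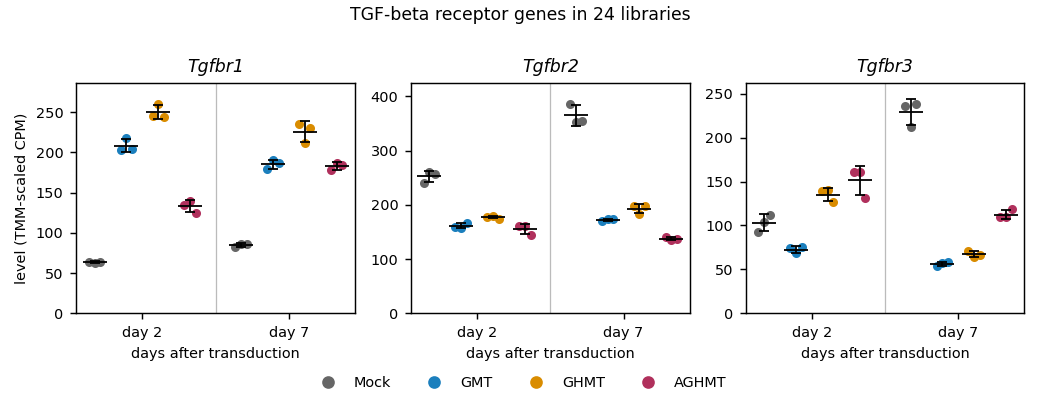
Level in TMM-scaled CPM (vertical axis, from 0) of the 3 receptor genes at day 2 and day 7. Each point is a library, with the mean and SD of 3 libraries. All cocktail libraries are above Mock for Tgfbr1 and below Mock for Tgfbr2, and Tgfbr3 in Mock goes from 103 ± 9.56 to 229 ± 14.8 CPM.

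Of the LTBPs, Ltbp2 and Ltbp4 had fallen furthest by day 7, when Mock itself had gained both. Ltbp1 was above Mock under GHMT and below it under GMT and AGHMT at both days. Ltbp3 was slightly above Mock at day 2 and below it at day 7.

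Ltbp2 (ENSMUSG00000002020, chromosome 12, 84783212-84876532, minus strand) encodes a fibrillin-binding protein of elastic fibres that, unlike the other LTBPs, does not bind latent TGF-beta. It stood at 314, 316 and 312 CPM in Mock at day 2 and 969, 917 and 865 CPM at day 7. The cocktail libraries were at 134, 131 and 133 in GMT, 147, 135 and 126 in GHMT and 123, 122 and 88.8 in AGHMT at day 2. At day 7 they were at 97.6, 94.9 and 118 in GMT, 128, 125 and 147 in GHMT and 87.4, 85.8 and 95.02 in AGHMT. All 18 cocktail libraries were below Mock, and GMT, GHMT and AGHMT stood between 85.8 and 147 CPM over both days. The falls were log2 -1.24 ± 0.09 under GMT, -1.21 ± 0.09 under GHMT and -1.50 ± 0.09 under AGHMT (edgeR, adjusted p = 1.39e-11, 2.48e-11 and 3.05e-13) at day 2. Those of day 7 were log2 -3.15 ± 0.10 under GMT, -2.78 ± 0.10 under GHMT and -3.36 ± 0.10 under AGHMT (edgeR, adjusted p = 2.10e-19, 1.94e-18 and 5.99e-20). Mock rose by 1.55 ± 0.09 (edgeR, adjusted p = 5.46e-13). GHMT and GMT did not differ by the test at day 2 (0.04 ± 0.09, 95% interval -0.16 to 0.24, edgeR, adjusted p = 0.784), and at day 7 GHMT was above GMT by 0.37 ± 0.09 (edgeR, adjusted p = 0.00284). AGHMT differed from GHMT by -0.58 ± 0.09 at day 7 (edgeR, adjusted p = 1.48e-05) and by -0.29 ± 0.09 at day 2 (edgeR, adjusted p = 0.0122). The day 2 value missed the threshold with scaling by library totals (log2 -0.20, adjusted p = 0.071), with the compared libraries fitted alone (log2 -0.28, adjusted p = 0.11), without library 3 of AGHMT at day 2 (log2 -0.15, adjusted p = 0.092) and without library 1 of GHMT at day 2 (log2 -0.23, adjusted p = 0.0732).

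Ltbp4 (chromosome 7, 27305136-27337692, minus strand, placed by symbol because its identifier in the count table is not in GENCODE M21) encodes the LTBP known for elastic fibre assembly in the lung and for binding TGF-beta 1. Its Mock libraries were at 54.9, 56.7 and 52.4 CPM at day 2 and 148, 130.2 and 122 CPM at day 7. At day 2 the others were at 43.6, 40.3 and 39.8 in GMT, 36.6, 35.5 and 31.5 in GHMT and 21.6, 19.7 and 19.7 in AGHMT. At day 7 they were at 10.3, 9.17 and 11.6 in GMT, 8.83, 9.79 and 10.3 in GHMT and 6.83, 7.28 and 8.42 in AGHMT. Every cocktail library was lower at day 7 than at day 2 while Mock rose, and only GMT and GHMT overlapped, at day 7. This was the deepest fall of the 10 genes at day 7: log2 -3.69 ± 0.09 under GMT, -3.79 ± 0.09 under GHMT and -4.15 ± 0.09 under AGHMT (edgeR, adjusted p = 4.26e-22, 3.14e-22 and 9.60e-23). At day 2 the falls were log2 -0.41 ± 0.08 under GMT, -0.66 ± 0.08 under GHMT and -1.43 ± 0.08 under AGHMT (edgeR, adjusted p = 4.57e-05, 4.40e-08 and 3.12e-14). GHMT differed from GMT by -0.26 ± 0.08 at day 2 (edgeR, adjusted p = 0.00982), which missed the threshold without library 3 of GHMT at day 2 (log2 -0.19, adjusted p = 0.0741) and without library 1 of GMT at day 2 (log2 -0.21, adjusted p = 0.0586). At day 7 the 2 did not differ by the test (-0.11 ± 0.10, 95% interval -0.32 to 0.10, edgeR, adjusted p = 0.439). AGHMT differed from GHMT by -0.77 ± 0.08 and -0.36 ± 0.10 (edgeR, adjusted p = 2.53e-08 and 0.00636) at day 2 and day 7.

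Beside these falls, the summed fibroblast markers given above were also lower under the cocktails, and the macrophage sum was higher in Mock at day 7. Of the fibroblast list, Vim (vimentin) went against the sum, at 3151 CPM in Mock at day 7 against 5882, 5077 and 3863 CPM under GMT, GHMT and AGHMT, and at day 2 at 3928 CPM in Mock against 7439, 6684 and 2397 CPM. Dcn and Lum averaged 162 and 54.5 CPM in Mock at day 2, against 264 and 96.6 CPM in GHMT and 350.1 and 164 CPM in AGHMT. The macrophage genes Adgre1 and C1qa averaged 24.3 and 29.6 CPM in Mock at day 7 and between 1.42 and 2.27 CPM under the cocktails. Csf1r, also on the macrophage list, did not follow them, at 30.4 CPM in Mock against 25.8, 18.8 and 13.8 CPM at day 7, and at 3.62 CPM in Mock against 13.4, 9.81 and 3.44 CPM at day 2. The part of either cell type in these differences was not tested.

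Ltbp1 (ENSMUSG00000001870, chromosome 17, 75005568-75392512, plus strand) encodes the LTBP that ties latent TGF-beta to fibronectin and fibrillin matrix. Its libraries at day 2 were at 428, 397 and 381 CPM in Mock, 249, 260.2 and 252 in GMT, 549, 541 and 502 in GHMT and 247, 260.3 and 229 in AGHMT. At day 7 they were at 358, 368 and 355 CPM in Mock, 223, 215 and 211 in GMT, 471, 428 and 459.6 in GHMT and 304, 307 and 295 in AGHMT. GHMT stood above Mock and the other 2 cocktails below it at both days, with no overlap. The differences were log2 -0.66 ± 0.05 under GMT, 0.40 ± 0.05 under GHMT and -0.71 ± 0.05 under AGHMT (edgeR, adjusted p = 1.91e-11, 1.53e-07 and 3.42e-12) at day 2. The day 7 differences were log2 -0.74 ± 0.05 under GMT, 0.33 ± 0.05 under GHMT and -0.25 ± 0.05 under AGHMT (edgeR, adjusted p = 1.99e-12, 2.71e-06 and 7.92e-05). GHMT exceeded GMT by 1.06 ± 0.05 at day 2 and 1.07 ± 0.05 at day 7 (edgeR, adjusted p = 6.30e-15 and 7.36e-15), and AGHMT differed from GHMT by -1.11 ± 0.05 and -0.58 ± 0.05 (edgeR, adjusted p = 3.17e-15 and 6.15e-10). Ltbp1 in Mock fell by 0.16 on the log2 scale between the days (edgeR, adjusted p = 0.0101), a difference that missed the threshold with no filter on low counts (log2 -0.12, adjusted p = 0.0661) and without library 1 of Mock at day 2 (log2 -0.11, adjusted p = 0.0919).

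Ltbp3 (ENSMUSG00000024940, chromosome 19, 5740904-5758532, plus strand) encodes an LTBP known for latent TGF-beta in bone and teeth. Its day 2 libraries were at 142, 156 and 154 CPM in Mock, against a range over the 9 cocktail libraries of 157 to 188 CPM. At day 7 they were at 315, 291 and 268 CPM in Mock and from 130.2 to 187 CPM under the cocktails. The cocktail libraries lay just above Mock at day 2 and well below it at day 7. The differences were log2 0.30 ± 0.05 under GMT, 0.14 ± 0.05 under GHMT and 0.19 ± 0.05 under AGHMT (edgeR, adjusted p = 9.57e-06, 0.0155 and 0.00183) at day 2. By day 7 they stood at log2 -0.66 ± 0.05 under GMT, -0.78 ± 0.05 under GHMT and -1.12 ± 0.05 under AGHMT (edgeR, adjusted p = 9.93e-12, 4.67e-13 and 2.62e-16). The day 2 rise under GHMT missed edgeR's threshold with scaling by library totals (log2 0.07, adjusted p = 0.18), without library 1 of GHMT at day 2 (log2 0.13, adjusted p = 0.054), without library 2 of GHMT at day 2 (log2 0.12, adjusted p = 0.0659) and without library 1 of Mock at day 2 (log2 0.10, adjusted p = 0.101). Mock rose by 0.95 ± 0.05 between the days (edgeR, adjusted p = 4.34e-14). AGHMT differed from GHMT by -0.34 ± 0.05 at day 7 (edgeR, adjusted p = 3.13e-06), and the day 2 difference was 0.04 ± 0.05 (edgeR, adjusted p = 0.485), called only with scaling by library totals (log2 0.13, adjusted p = 0.0202). GHMT differed from GMT by -0.16 ± 0.05 at day 2 (edgeR, adjusted p = 0.0112), which missed the threshold without library 3 of GHMT at day 2 (log2 -0.12, adjusted p = 0.08). The day 7 difference, -0.12 ± 0.05 (edgeR, adjusted p = 0.0746), was called with scaling by library totals (log2 -0.16, adjusted p = 0.00783) and with the compared libraries fitted alone (log2 -0.11, adjusted p = 0.0293).

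**Figure D4:**
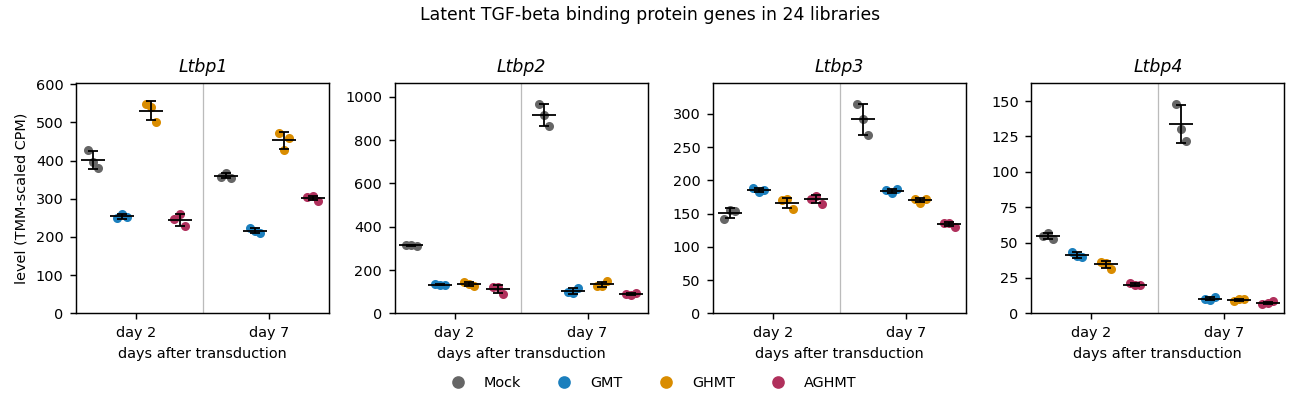
Level in TMM-scaled CPM (vertical axis, from 0) of the 4 LTBP genes at day 2 and day 7. Each point is a library, with the mean and SD of 3 libraries. Mock at day 7 is highest for Ltbp2, Ltbp3 and Ltbp4, at 917 ± 51.9, 292 ± 23.6 and 133 ± 13.4 CPM, and GHMT is highest for Ltbp1.

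Upstream sequences of 3 LTBP genes are shown to set those that fell together (Ltbp2 and Ltbp4) beside the one that rose under GHMT (Ltbp1, for which RefSeq lists 2 starts). Each is the 250 bases before a start in RefSeq on GRCm38.p6, 5′ to 3′ on the gene's strand, at chr17:75005279-75005528 and chr17:75178531-75178780 (plus), chr12:84876492-84876741 (minus) and chr7:27337613-27337862 (minus, the first of 3 starts). Capitals mark TGACGTCA in the first Ltbp1 window (73 to 66 bases before the start) and CATCTG, an E-box form that Hand proteins can bind, in the second (157 to 152 before it) and in Ltbp2 (198 to 193 before it).
Ltbp1 start 1: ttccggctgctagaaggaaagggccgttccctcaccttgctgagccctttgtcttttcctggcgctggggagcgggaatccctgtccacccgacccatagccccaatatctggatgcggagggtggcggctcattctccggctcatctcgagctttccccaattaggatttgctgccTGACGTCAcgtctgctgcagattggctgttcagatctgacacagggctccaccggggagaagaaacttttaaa
Ltbp1 start 2: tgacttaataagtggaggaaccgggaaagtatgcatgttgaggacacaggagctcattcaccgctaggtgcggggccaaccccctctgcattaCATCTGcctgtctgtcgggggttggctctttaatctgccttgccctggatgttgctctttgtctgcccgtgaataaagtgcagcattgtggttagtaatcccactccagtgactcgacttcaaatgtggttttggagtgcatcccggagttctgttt
Ltbp2: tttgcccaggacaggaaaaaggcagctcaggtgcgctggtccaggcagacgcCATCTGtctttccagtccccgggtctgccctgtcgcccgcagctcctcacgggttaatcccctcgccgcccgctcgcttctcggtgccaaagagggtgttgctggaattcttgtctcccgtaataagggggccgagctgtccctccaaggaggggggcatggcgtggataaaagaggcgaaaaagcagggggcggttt
Ltbp4 start 1: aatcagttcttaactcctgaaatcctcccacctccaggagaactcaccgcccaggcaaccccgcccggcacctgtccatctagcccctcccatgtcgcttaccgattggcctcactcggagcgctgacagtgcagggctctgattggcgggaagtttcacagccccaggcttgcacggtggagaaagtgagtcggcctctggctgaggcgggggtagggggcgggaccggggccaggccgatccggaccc
None of the 8 strings is in the 3 Ltbp4 windows. CATCTG was in 14.4% and TGACGTCA in 1.55% of the 32851 promoters. AGGTGT, in 11.8% of them, was in the windows of Tgfbr2 and Ltbp3. CATCTG stood before the second Ltbp1 start, not the first, and before Ltbp2. Which start the cells used, and any part of these strings in the changes, was not tested. The promoter table held 8 of the 10 genes, 12 starts in all.

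Summed per kilobase of exon, the 4 LTBPs came to 101 ± 1.99 CPM per kb in Mock at day 2 and 199 ± 11.1 at day 7. Under GMT, GHMT and AGHMT the sum was 66.8 ± 0.323, 89.9 ± 4.77 and 58.6 ± 4.51 at day 2 and 54.8 ± 1.77, 78.9 ± 3.34 and 55.1 ± 0.242 at day 7. Ltbp2 was 56.4% ± 0.0583 of the Mock sum at day 7, against 23.05% ± 2.11, 20.7% ± 1.28 and 19.8% ± 1.18 under the cocktails. Ltbp1 was 17.00% ± 0.919 in Mock and 36.96% ± 1.75, 53.7% ± 1.21 and 51.3% ± 0.865 in the same order. These shares too depend on the gene length used, which the SD does not cover. With the longest transcript of each gene as its length, Mock at day 7 has 51.1% Ltbp2 and 20.4% Ltbp1. The leading LTBP messenger at day 7 was therefore Ltbp2 in Mock and Ltbp1 in GHMT and AGHMT, while in GMT Ltbp1 and Ltbp3 (37.1% ± 0.616) were level within their SD.

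**Figure D5:**
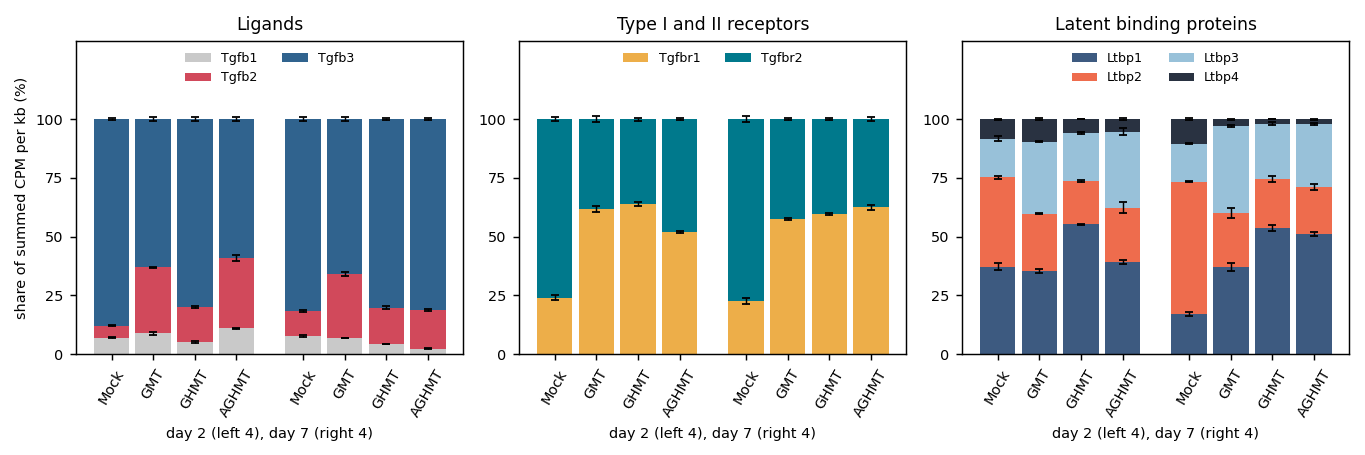
Share (%) of each gene in the summed CPM per kb of exon of its family (vertical axis) in the 8 groups: ligands (left), type I and type II receptor (middle) and LTBPs (right). Bars stack the mean of 3 libraries, with whiskers of SD at the top of each segment. Tgfbr1 goes from 24.02% ± 0.944 in Mock at day 2 to 63.9% ± 0.668 in GHMT, and Ltbp2 from 56.4% ± 0.0583 in Mock at day 7 to at most 23.05% ± 2.11 under a cocktail.

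With Hand2 added (GHMT against GMT), Tgfb3, Tgfbr1, Tgfbr2, Tgfbr3 and Ltbp1 were higher and Tgfb2 lower at both days. Gata4, Mef2c and Tbx5 averaged 1479, 3054 and 3409 CPM in GHMT at day 2, against 1143, 2800 and 2983 CPM in GMT. At day 7 they averaged 1142, 2016 and 2746 CPM in GHMT, against 1022, 1681 and 2327 CPM in GMT. Added Hand2 and these levels cannot be told apart, and their parts were not tested. At day 2, 9 of the 10 genes were called, 5 higher and 4 lower, against 44.8% called (23.1% higher, 21.7% lower) of all tested genes. At day 7, 7 were called, 6 higher and 1 lower, against 37.5% called (18.7% higher, 18.8% lower). Ltbp1 passed 2-fold at day 2 (1.06 ± 0.05) and day 7 (1.07 ± 0.05), as 9.79% and 8.12% of tested genes did in either direction. Scaling by library totals moved the share of higher among all called genes at day 2 from 51.5% to 32.4%, with a shift of the median log2 of all genes of -0.12.

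With Akt1 added (AGHMT against GHMT), most members were lower. The Akt1 messenger itself averaged 469 CPM in AGHMT and 393 CPM in GHMT at day 2. Gata4, Mef2c and Tbx5 averaged 1133, 2819 and 2637 CPM in AGHMT at day 2, against 1479, 3054 and 3409 CPM in GHMT. At day 7 they averaged 633, 1643 and 1730 CPM in AGHMT, against 1142, 2016 and 2746 CPM in GHMT. Hand2 was at 1015 against 1166 CPM at day 2 and 1125 against 978 CPM at day 7. Added Akt1 and these levels of the other factors cannot be told apart, and their parts were not tested. At day 2, 8 of the 10 genes were called by edgeR, 0 higher and 8 lower, against 52.7% called (25.7% higher, 27% lower) of all tested genes. By the unadjusted p, 1 was higher (Tgfbr3), and by DESeq2 0. At day 7, 10 were called, 1 higher (Tgfbr3) and 9 lower, against 48.7% called (25% higher, 23.6% lower). Tgfb3 and Ltbp1 at day 2 and Tgfb1 at day 7 passed 2-fold, at log2 -1.69, -1.11 and -1.15, as 10.7% of all tested genes did at day 2 and 8.88% at day 7. AGHMT against GHMT shares the GHMT libraries with the comparison of GHMT against GMT. By library totals the share of higher among all called genes at day 2 was 61.4% in place of 48.8%, and Tgfbr3 and Ltbp3 were then called higher.

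Mock was not constant. Between day 2 and day 7, all 10 genes were called in Mock, 7 higher and 3 lower, against 55.5% called (29.7% higher, 25.8% lower) of all tested genes. Ltbp2 rose by log2 1.55 ± 0.09, Ltbp4 by 1.29 ± 0.07 and Tgfbr3 by 1.15 ± 0.07, followed by Ltbp3 at 0.95 ± 0.05, Tgfb2 at 0.59 ± 0.05, Tgfbr2 at 0.53 ± 0.05 and Tgfbr1 at 0.42 ± 0.05 (edgeR, largest adjusted p = 8.24e-08). Tgfb3 fell by 0.56, Tgfb1 by 0.29 and Ltbp1 by 0.16 on the log2 scale. By library totals, 39.7% of all called genes were higher in place of 53.5%. The difference from Mock changed between the days for 8 of the 10 genes under GMT, 9 under GHMT and 8 under AGHMT, against 49.5%, 49.3% and 50.9% of all tested genes. For GHMT, scaling by library totals moved the upward share among all such genes from 47.2% to 58.1%, and the median of all genes by log2 0.10.

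The genes around the 10 were read from lists, described by counts of called genes and medians, without a test of the list. Of 22 genes that hold or activate latent TGF-beta, 3, 6 and 7 rose and 16, 14 and 14 fell at day 2 under GMT, GHMT and AGHMT, and 5, 7 and 6 rose and 16, 14 and 14 fell at day 7. In the same comparisons, all tested genes were called in shares of 33.9%, 34.9% and 38% higher and 33.1%, 33.3% and 37.4% lower at day 2, and 37.1%, 36.3% and 38.6% higher and 36%, 35.6% and 38.1% lower at day 7. Their median log2 fold changes were -1.27, -0.54 and -0.55 at day 2 and -1.28, -1.05 and -0.77 at day 7, while the medians of all tested genes were within 0.0118 of 0. Mmp2, a gelatinase able to free latent TGF-beta, fell under all 3 cocktails at day 7, at log2 -3.86 ± 0.06, log2 -3.52 ± 0.06 and log2 -3.34 ± 0.06. Lrrc32 (GARP), which holds latent TGF-beta at the cell surface, fell at day 2, at log2 -3.18 ± 0.10, log2 -2.68 ± 0.09 and log2 -3.14 ± 0.10. Thbs1, the activator thrombospondin 1, was at 983 ± 99.3 against 9624 ± 236 CPM in AGHMT and Mock at day 2. Fbn2, a fibrillin, was at 24.4 ± 3.87 against 2122 ± 65.8 CPM in GHMT and Mock at day 7. Against these falls, Bmp1, a protease that cleaves LTBP1, rose under GMT by log2 1.12 ± 0.04 at day 2 and log2 1.55 ± 0.04 at day 7, and Tgm2, the transglutaminase that crosslinks LTBP1 to matrix, rose under AGHMT at day 7, standing at 439 ± 24.01 against 38.1 ± 2.19 CPM. Itgb6 and Itgb8, whose integrins activate latent TGF-beta, were higher in AGHMT than in GHMT at day 7, by log2 3.08 ± 0.18 and log2 2.52 ± 0.11.

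Of 10 proteins that bind TGF-beta or related ligands outside the cell, 3, 3 and 2 rose and 5, 4 and 6 fell at day 2, and 4, 4 and 2 rose and 6, 5 and 6 fell at day 7, with medians of log2 -0.32, -0.05 and -0.23 and -0.64, -0.21 and -0.64, in the order GMT, GHMT and AGHMT. Of all tested genes, 33.9 to 38% higher and 33.1 to 37.4% lower at day 2, and 36.3 to 38.6% and 35.6 to 38.1% at day 7, were called, so that 3 of 10 higher is near the share of all genes. The small proteoglycans led the falls: Bgn (biglycan) was at 872 ± 58.9 against 6978 ± 278 CPM in GMT and Mock at day 7, and Dcn (decorin), also among the fibroblast markers, at 30.3 ± 3.75 against 909.8 ± 29.6 CPM. Dcn was higher under GHMT and AGHMT than under Mock at day 2, by log2 0.70 ± 0.08 and log2 1.11 ± 0.09, and below it at day 7, by log2 -2.59 ± 0.09 and log2 -1.42 ± 0.08. Fst (follistatin), an activin trap, rose under GMT by log2 2.74 ± 0.06 at day 2 and log2 1.81 ± 0.06 at day 7, and was log2 -1.13 ± 0.06 under AGHMT at day 7.

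Of 12 related receptors and coreceptors, 6, 6 and 5 rose and 5, 5 and 6 fell at day 2, and 5, 5 and 5 rose and 7, 6 and 6 fell at day 7, with medians of log2 0.09, 0.13 and -0.22 and -0.20, -0.02 and -0.12. These counts stand beside 33.9 to 38% higher and 33.1 to 37.4% lower at day 2, and 36.3 to 38.6% and 35.6 to 38.1% at day 7, of all tested genes. Bambi, a pseudoreceptor without a kinase that dampens TGF-beta signalling, was at 203 ± 10.00 against 15.9 ± 0.177 CPM in GHMT and Mock at day 2. Its rise was log2 2.87 ± 0.07, log2 3.68 ± 0.07 and log2 3.48 ± 0.07 at day 2 and log2 2.83 ± 0.07, log2 3.30 ± 0.07 and log2 3.11 ± 0.07 at day 7. Acvrl1 (ALK1), a type I receptor best known from endothelium, fell by log2 -2.14 ± 0.06, log2 -2.66 ± 0.06 and log2 -3.36 ± 0.06 at day 2. The activin receptor Acvr2a and the BMP receptor Bmpr1b fell under every cocktail at both days. Between AGHMT and GHMT, 7 of the 12 were lower and 2 higher at day 2, against 27% lower and 25.7% higher of all tested genes, a total of 9 that was 5 with scaling by library totals. Eng (endoglin), a coreceptor, was log2 -0.79 ± 0.05 at day 2 and log2 -0.83 ± 0.05 at day 7 in that comparison.

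Of 23 SMADs and regulators of SMADs, 5, 7 and 6 rose and 12, 12 and 14 fell at day 2, and 8, 7 and 5 rose and 10, 9 and 15 fell at day 7, with medians of log2 -0.12, -0.13 and -0.31 and -0.01, -0.02 and -0.26. The shares of all tested genes called were 33.9 to 38% higher and 33.1 to 37.4% lower at day 2, and 36.3 to 38.6% and 35.6 to 38.1% at day 7. Smad1, a BMP-branch SMAD, rose at day 2 by log2 0.86 ± 0.04, log2 1.44 ± 0.04 and log2 1.03 ± 0.04. Smad7, the inhibitory SMAD that TGF-beta itself induces, rose at day 7 by log2 1.51 ± 0.07 under GHMT and log2 1.10 ± 0.07 under AGHMT. Pmepa1, another induced inhibitor, fell under GMT, at log2 -1.22 ± 0.05 at day 2 and log2 -1.33 ± 0.05 at day 7. The corepressor Ski fell at day 7, at log2 -1.19 ± 0.04, log2 -0.92 ± 0.04 and log2 -1.55 ± 0.04.

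Of 32 textbook targets of TGF-beta, 26, 26 and 29 fell and 6, 4 and 3 rose at day 2 under GMT, GHMT and AGHMT, and 20, 19 and 22 fell and 9, 11 and 9 rose at day 7, where all tested genes were called 33.9 to 38% higher and 33.1 to 37.4% lower at day 2, and 36.3 to 38.6% and 35.6 to 38.1% at day 7. Their medians were log2 -1.43, -1.22 and -1.50 at day 2 and -0.56, -0.34 and -0.74 at day 7. Ctgf, which encodes a matricellular protein, was at 45.7 ± 6.74 against 533 ± 52.5 CPM in AGHMT and Mock at day 2. The difference of the collagen gene Col3a1 from Mock moved between the days by log2 -3.64 ± 0.09, log2 -3.54 ± 0.09 and log2 -2.73 ± 0.09 under GMT, GHMT and AGHMT. Over the list, 18, 20 and 21 of the 32 moved up and 8, 9 and 8 down between the days, against 24.3%, 23.3% and 24.8% up and 25.3%, 26% and 26.1% down of all tested genes, with medians of 0.66, 0.68 and 0.83. Col1a1, Col1a2 and Col3a1 are also among the fibroblast markers, and many of these genes answer to signals other than TGF-beta.

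The genes most similar in pattern to each member were sought among 10628 tested genes with a mean of at least 5 CPM, by Pearson's r of log2 CPM over the 24 libraries, which share 8 groups and are not independent. Tgfb2 was closest to Gpx3 (r = 0.99) and Llgl2 (0.99). Tgfb3 was closest to Actn1 (0.92) and Slc39a13 (0.92), and Tgfb1 to Unc45a (0.90) and Renbp (0.90). For the receptors, the nearest were Eda2r (0.98) and Ripply1 (0.97) to Tgfbr1, Spin1 (0.97) and Rnd3 (0.97) to Tgfbr2, and Nrk (0.98) and Pde3b (0.97) to Tgfbr3. For the LTBPs they were Ndrg1 (0.91) and Kdelr3 (0.90) to Ltbp1, Bcl11b (0.98) and Svep1 (0.98) to Ltbp2, Evc2 (0.91) and C4b (0.89) to Ltbp3, and Fndc4 (0.98) and Kdelc2 (0.98) to Ltbp4. These r describe likeness over these libraries only.

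Exons of Tgfb2 overlap those of Gm29491, those of Tgfb3 overlap Gm37804 and Gm48008, and those of Tgfbr3 and Ltbp2 overlap Gm43422 and D030025P21Rik, in GENCODE M21. The strand setting of the counting is not given in the sources used here, so reads of an overlapping pair may have been counted together or left out.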

How the data were processed

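Total RNA was sequenced in 24 libraries of mouse embryonic fibroblasts, and groups and replicate numbers came from the labels. Tools named in the submitters' processing notes, with no role or order, were featureCounts 1.4.6, HISAT2 2.0.1, DESeq2 1.6.3 and Trim Galore 0.4.1, with the build GRCm38 (mm10). The annotation release was not given in the sources used here, nor was the strand setting. The deposited table holds raw whole-number counts per gene made by the authors. The deposited log2 table was used only as a check: for values above 1 CPM it equals log2 of CPM within 0.00603.

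Counts were filtered by filterByExpr, TMM-scaled and tested by the quasi-likelihood F test of edgeR 4.0.16 (R 4.3.3), with 1 mean per group over 24 libraries, 16 residual degrees of freedom and a common coefficient of variation of 5.55%. P-values were two-sided and adjusted over all 17576 tested genes, with a threshold of 0.05, for 14 comparisons. Replicates differed by more than sampling noise (lowest chi-square per degree of freedom 1.49), so each library counted once. Depth limits precision mainly for genes at a few counts. The fitting code was first tested on simulated counts for AGHMT and Mock at day 7 alone, fewer libraries than in the reported fit. There it recovered 49% of 1.2-fold, 73.5% of 1.5-fold, 89.4% of 2-fold and 98% of 4-fold changes. Of the unchanged genes 0.0634% were called.

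The alternatives were DESeq2 1.42.0, the RLE method of scaling, testing without a filter, the compared libraries alone, the replicate number as a block, and each library left out. Scaling by library totals and leaving out 3 libraries were chosen after seeing the data. The members and gene lists were chosen with earlier results of these data known. Named genes were the 10 members, up to 4 called genes per list and comparison with the smallest adjusted p, and the 2 genes nearest in pattern to each member. The receptor share and the TATAAA and CACGTG searches were also chosen after seeing values, as were the macrophage and fibroblast marker genes named singly. Gene positions and exon lengths came from GENCODE M21 (GRCm38), in which 47601 of 47967 genes matched by identifier and 166 by symbol. Promoters came from RefSeq (GRCm38.p6). Some genes of the lists are counted there but not reported singly here.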

Additional observations from a re-analysis of the deposited data

Results flagged for a closer look

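For 25 of the 30 pairs of a gene and a cocktail, the difference from Mock was not the same at day 7 as at day 2 by a test of the change itself (edgeR, adjusted p under 0.05), and these are listed as log2 changes of the difference. Positive values mean that the cocktail gained on Mock between the days. All of these changes among the ligands were upwards: Tgfb1 moved by 0.50 under GMT and 0.83 under GHMT, Tgfb2 by 0.22 under GHMT and 0.31 under AGHMT, and Tgfb3 by 1.22 under GMT, 1.33 under GHMT and 2.79 under AGHMT. Mock itself fell for Tgfb1 and Tgfb3 between the days (log2 -0.29 and -0.56), so part of their values is a fall in Mock. The change of Tgfb2 under GHMT missed the threshold with no filter on low counts (log2 0.20, edgeR, adjusted p = 0.065). That of Tgfb1 under AGHMT, -0.16 and not called (adjusted p = 0.0677), passed it downwards without library 2 of Mock at day 7 (log2 -0.20, adjusted p = 0.0416).

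The receptors moved downwards relative to Mock, with Tgfbr1 at -0.59 under GMT and -0.57 under GHMT, Tgfbr2 at -0.43 under GMT, -0.41 under GHMT and -0.70 under AGHMT, and Tgfbr3 at -1.51 under GMT, -2.16 under GHMT and -1.58 under AGHMT. Tgfbr1 rose over Mock at both days, by less at day 7 under GMT and GHMT. Mock itself gained Tgfbr1, Tgfbr2 and Tgfbr3 between the days, by log2 0.42, 0.53 and 1.15, so these values hold that rise in Mock. Tgfbr2 averaged 161 CPM at day 2 and 172 CPM at day 7 in GMT, and 177 and 193 CPM in GHMT. In AGHMT it averaged 155 and 138 CPM.

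Of the LTBPs, Ltbp1 moved by 0.46 under AGHMT. Ltbp2 moved by -1.90 under GMT, -1.57 under GHMT and -1.86 under AGHMT, Ltbp3 by -0.97 under GMT, -0.92 under GHMT and -1.31 under AGHMT, and Ltbp4 by -3.28 under GMT, -3.13 under GHMT and -2.72 under AGHMT. Mock itself gained Ltbp2, Ltbp3 and Ltbp4 between the days, so part or nearly all of each of their values is a rise in Mock. Ltbp3 averaged 186 CPM at day 2 and 184 CPM at day 7 in GMT, and 166 and 170 CPM in GHMT. In AGHMT it averaged 171 and 134 CPM. Ltbp2 averaged 136 and 134 CPM in GHMT, 133 and 103 CPM in GMT, and 111 and 89.4 CPM in AGHMT. Ltbp4 was also lower at day 7 than at day 2 in every cocktail library. The Mock libraries of a day are shared by all cocktails, so these values are not independent. The 5 pairs that did not pass this test were Tgfb2 and Ltbp1 under GMT, Ltbp1 under GHMT, and Tgfb1 and Tgfbr1 under AGHMT.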

How the results depend on the processing

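The direction and call of 140 values (10 genes in 14 comparisons) were recomputed under each alternative, and no count of members called moved by over 1.5 times. All 140 kept both with RLE size factors, 139 with DESeq2, 132 without a filter, 137 with the compared libraries alone, 131 with library totals and 137 without the 3 libraries furthest from their groups (library 3 of AGHMT and of GHMT at day 2, library 2 of GHMT at day 7). Of 1020 values with 1 library left out, 991 kept both, 23 lost the call, 2 gained it and 4 changed sign. The counts of members called were lowest for GHMT against GMT at day 7 (5 to 8 over all alternatives, 7 as reported) and AGHMT against GHMT at day 2 (6 to 8, 8 as reported). The calls lost were of differences of at most log2 0.289 in size.

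Changes of sign were all of values near 0 that were not called. Tgfb1 in GHMT against Mock at day 2 was 0.0044 without a filter, 0.00208 with DESeq2, and -0.0546 to 0.047 with 1 library left out. Ltbp2 in GHMT against GMT at day 2 was -0.0796 with library totals and -0.0214 to 0.0879 with 1 library left out. The day difference of Ltbp1 under GHMT was 0.0306 with library totals. The day difference of Tgfbr1 under AGHMT was -0.00667 without the 3 libraries and -0.00689 to 0.0722 with 1 library left out. The cause of these changes was not tested.

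The labels number the replicates 1 to 3 in each group without saying that a number marks a shared culture. Deviations of same-numbered libraries from their group means correlated by -0.21 to 0.27 (mean 0.000718, against -0.000318 for different numbers), and 5 of 24 libraries correlated best with their own number, so the numbers were not taken to pair the libraries. With a replicate block, 10, 9 and 10 members were called at day 2 and 10, 10 and 10 at day 7 against Mock, 9 and 7 for GHMT against GMT, 8 and 10 for AGHMT against GHMT, and no call changed.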
